A study of Mus musculus with 3 samples.

Results

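The genes described here are the mouse class II major histocompatibility complex (MHC) genes with a place in peptide presentation, together with their transcriptional coactivator. The list holds 10 genes named by symbol, of 21851 protein-coding genes of GENCODE M21 that have a coding start site: H2-Aa, H2-Ab1 and H2-Eb1 (chains of the surface molecules), H2-DMa, H2-DMb1 and H2-DMb2 (the peptide-loading chaperone), H2-Oa and H2-Ob (its inhibitor), Cd74 (the invariant chain) and Ciita (the coactivator). DNase-seq, which cuts open chromatin with DNase I and sequences the fragments, was run on primary monocytes of female adult B6CASTF1/J mice, 2 months old, an F1 hybrid strain. There were 3 libraries of this 1 group, labelled biological replicates 1, 2 and 4; they carry separate biosample identifiers and 1 shared donor identifier, and no label states that they came from separate animals, so the spread between them may be technical. No treatment or control group was given, so everything below is description without a test. A sorting gate or monocyte subset is not given in the labels.

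Class II molecules are heterodimers of an alpha and a beta chain that display peptides from the endosomal pathway to CD4+ T cells. Cd74 fills the groove on the way to the endosome, the DM dimer exchanges its remnant for peptide, and the O dimer restrains DM. The promoters of this family are read by a shared set of factors: RFX binds the X box, CREB-type proteins bind next to it, NF-Y binds the Y box, and Ciita, which does not bind DNA itself, docks on that assembly. In mice Ciita is transcribed from alternative promoters, of which type I is known from myeloid cells, type III from B cells and plasmacytoid dendritic cells, and type IV from the response to interferon gamma. Monocytes are known for low or inducible class II expression, in contrast to dendritic cells and B cells.

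The sequences that carry the results are the X and Y boxes, read from the mm10 reference (GRCm38.p6). The cells are F1 hybrids, and letters of the CAST allele were not used here. The full module was spelled as AGNNACNG (X1 box) followed on the same strand by ATTGG (Y box), starting 28 to 40 bases after the start of the X1 box, and both strands were searched from 250 bases before to 50 bases after each coding start. It was present at 3 of 10 members, H2-Ab1, H2-Eb1 and H2-DMa, and at 1.04% of all genes. Capitals mark the X1 and Y boxes, and for H2-DMa only 30 bases around the X1 box are given.
H2-Ab1, chr17:34263139-34263194, plus strand: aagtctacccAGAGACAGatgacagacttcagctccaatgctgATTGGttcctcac
H2-Eb1, chr17:34305765-34305820, plus strand: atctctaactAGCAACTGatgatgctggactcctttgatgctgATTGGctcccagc
H2-DMa, chr17:34135505-34135534, plus strand: ttctcctcAGCGACTGatgatgttaaacta

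A looser spelling, GNNAC followed by ATTGG 27 to 39 bases after its start, was added after these letters had been seen. It was present at 6 of 10 members, adding H2-Aa, H2-Oa and H2-Ob, against 10.5% of all genes. Neither spelling was present at H2-DMb1, H2-DMb2, Cd74 or Ciita, which says only that these letters are not in those windows. Capitals mark GNNAC and ATTGG in the promoters that only the looser spelling found.
H2-Aa, chr17:34287859-34287914, minus strand: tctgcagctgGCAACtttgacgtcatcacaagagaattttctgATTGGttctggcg
H2-Oa, chr17:34092293-34092348, plus strand: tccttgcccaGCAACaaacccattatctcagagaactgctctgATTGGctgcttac
H2-Ob, chr17:34238808-34238860, plus strand: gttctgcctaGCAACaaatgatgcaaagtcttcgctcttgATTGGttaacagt

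A promoter peak was taken as a deposited peak within 1 kb of any coding start, in the longer of the 2 peak lists of each library unless stated. It was found in all 3 libraries at 8 of 10 members, against 50.5% of all protein-coding genes. The exceptions were H2-DMb1, which lacked it in replicate 2, and H2-Ob, which had it in replicate 1 only. With the shorter list the count was 6 of 10 members, against 46.9% of genes, and with the taller 50% of peaks of each library it was also 6, against 44% of genes. Both settings removed H2-Oa and Ciita. With a window of 500 bp it stayed at 8, against 49.2% of genes. In single libraries 10, 8 and 9 members had a promoter peak in replicates 1, 2 and 4, against 54.3%, 52.2% and 52.9% of genes. Lower accessibility in each cell and fewer cells with an open promoter cannot be told apart in bulk material.

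Peak heights are the authors' values on each library's own scale, so each height was also placed as a percentile among all peaks of its library. Among the members with a promoter peak, 10, 8 and 9 of 10 in replicates 1, 2 and 4, the median percentile of the tallest peak was 84.2, 81.6 and 83.7. Among all genes with a promoter peak it was 87.3, 84.7 and 86.3, which was higher in each library. Their promoter windows held 11 regions with a peak in every library, 2 with a peak in 2 and 8 with a peak in 1. Among members with a peak in all libraries the mean percentiles ran from 98.8 for H2-DMa to 33.7 for Ciita.

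**Figure D1:**
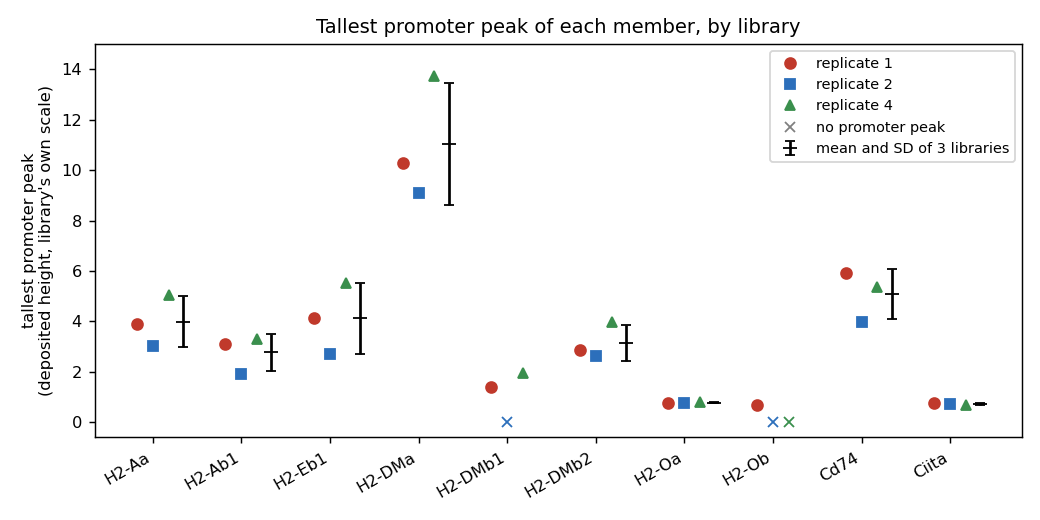
Tallest promoter peak of each member (vertical axis, deposited height on each library's own scale) in replicates 1, 2 and 4, with the mean and SD where all 3 libraries had a peak and a cross where none was listed. H2-DMa stands highest in every library, at 9.09 to 13.7, while H2-Oa and Ciita stay between 0.681 and 0.805.

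H2-Aa encodes the alpha chain of the I-A molecule, H2-Ab1 its beta chain, and H2-Eb1 the beta chain of I-E. The H2-Aa promoter peak had heights of 3.90, 3.03 and 5.04 in replicates 1, 2 and 4, a mean of 3.99 ± 1.01 (SD, n = 3). The H2-Ab1 peak reached 3.08, 1.93 and 3.30, a mean of 2.77 ± 0.737 (SD, n = 3). The H2-Eb1 peak reached 4.13, 2.70 and 5.53, a mean of 4.12 ± 1.41 (SD, n = 3). In all of these genes replicate 2 was the lowest library and replicate 4 the highest. The order was also that of the genome: over 13700 promoter regions with a peak in every library, the median ratio was 0.838 for replicate 2 to replicate 1 and 1.24 for replicate 4 to replicate 1. H2-Ab1 had a ratio of 0.627 and H2-Eb1 a ratio of 0.655, lower than all but 3.59% and 5.72% of these regions, while H2-Aa had a ratio of 0.778, at the 29.3 percentile. H2-Ab1 and H2-Eb1 were thus lower in replicate 2, relative to replicate 1, than most promoters.

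Deposited footprints, short protected stretches inside open chromatin, lay over these boxes. The X1 box of H2-Ab1, AGAGACAG, began at base -60 from the start site at 34263209 and was covered over 8, 5 and 8 of its 8 bases in replicates 1, 2 and 4. Its Y box, at base -27, was covered in no library. At H2-Eb1 both boxes were protected in all 3 libraries: the X1 box AGCAACTG, at base -92, was covered whole, and the Y box, at base -59, was covered over 5, 3 and 5 of its 5 bases. The GNNAC letters of H2-Aa lay under footprints of all 3 libraries and its ATTGG under those of 2. H2-Eb1 also had the full module on the opposite strand, with an X1 box at base -7 that footprints of replicate 4 alone covered. Over all recurrent promoter regions, 19.4% of 1363 matches of the looser module had GNNAC under footprints of every library.

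H2-Eb1 had another recurrent peak upstream of its start, at chr17:34304841-34305100, with heights of 2.16, 1.33 and 2.57. That region lies over an exon of Gm20513, an antisense noncoding gene whose record overlaps H2-Eb1. It held the looser module on the minus strand, with GNNAC under footprints of all 3 libraries. A further peak of 0.866 inside the gene, at chr17:34306521-34306820, was listed in replicate 1 alone.

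H2-DMa encodes the alpha chain of the DM chaperone, and its promoter was the most accessible of the list. At the start at 34135628 the peak had heights of 10.3, 9.09 and 13.7, a mean of 11.0 ± 2.42 (SD, n = 3), and percentiles of 98.9, 98.8 and 98.6. The X1 box there, AGCGACTG at base -115, lay wholly under footprints of all 3 libraries, while the Y box was covered over 1, 0 and 3 of its 5 bases in replicates 1, 2 and 4. An upstream annotated start at 34122832 had a peak of 7.13, 6.31 and 9.28, but that peak covers the start of Brd2, a bromodomain gene on the opposite strand, and its signal cannot be assigned to either gene. At the most upstream start, H2-DMa was also the only member in a CpG-rich setting. The CpG ratio at the start at 34135628 was not computed. The ratio of observed to expected CpG within 500 bp of the most upstream start, which for H2-DMa is the one next to Brd2, was 0.851, against 0.120 to 0.276 in the other members and a median of 0.571 over all genes.

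H2-DMb1 and H2-DMb2 are neighbouring copies that encode the DM beta chain. The H2-DMb2 promoter at 34143307 had heights of 2.86, 2.63 and 3.96, a mean of 3.15 ± 0.710 (SD, n = 3). The H2-DMb1 promoter at 34153072 had 1.40 in replicate 1, no listed peak in replicate 2 and 1.96 in replicate 4. The deposited false discovery rate (FDR) of the cleavage rate, listed only where it is under 0.05, was nevertheless 0.0457 at best in replicate 2, over 12 listed bases within 500 bp of that start. It was 1.28e-06 and 7.56e-09 in replicates 1 and 4. Replicate 2 thus had a few listed bases near the limit at H2-DMb1. How often promoters without a peak have such bases was not counted, so signal there cannot be told from background.

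A second annotated start of H2-DMb2, at 34145236, shares with the H2-DMb1 promoter 85 of 100 bases around the stretch below. It had a peak of 0.709 in replicate 1 alone, with a best FDR of 0.0233. The 30 bases are shown because they hold letters like the X box in both copies, and capitals mark the bases that differ.
H2-DMb1, chr17:34153091-34153120, plus strand: tacctaGtaacTgatgatgctaggctGaTt
H2-DMb2, chr17:34145120-34145149, plus strand: tacctaTtaacCgatgatgctaggctAaGt
From H2-DMb1 to H2-DMb2, counting from 1 at the 5′ end, the differences are G7T, T12C, G27A and T29G. Footprints covered 18, 0 and 23 bases of the H2-DMb1 stretch in replicates 1, 2 and 4, and none of the H2-DMb2 stretch in any library. The H2-DMb1 stretch lies in the listed peak of replicates 1 and 4, whereas the H2-DMb2 stretch lies outside every listed peak. How reads were assigned between the copies is not given in the sources used here, so the split between H2-DMb1 and H2-DMb2 is uncertain.

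H2-Oa and H2-Ob encode the alpha and beta chains of the O dimer. H2-Oa had a low peak in every library, with heights of 0.759, 0.780 and 0.805, a mean of 0.781 ± 0.0230 (SD, n = 3), at a mean percentile of 37.4. It was centred 384, 437 and 421 bp downstream of the start and appeared in no shorter list. Its best FDR was 0.0187, 0.000616 and 0.00382. Among members with a peak in all libraries H2-Oa had the smallest SD of deposited height, but each library has its own scale. On the percentile scale its peak was at 39.8, 38.3 and 34.1 in replicates 1, 2 and 4. No footprint lay over the module letters printed above for H2-Oa. Those letters lie outside the peak in every library, so missing footprints do not show unbound boxes.

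H2-Ob had peaks of 0.544 and 0.668 in replicate 1, and none in replicates 2 and 4, where no base within 500 bp of its start was listed under the FDR limit. In replicate 1 the best FDR in that window was 1.44e-27 over 430 listed bases. The same library gave Ciita an FDR of only 0.0219 at a taller peak of 0.767, so height and FDR ranked these promoters differently. No footprint of any library covered the GCAAC and ATTGG letters of H2-Ob. Those letters lie outside every listed peak, so missing footprints do not show unbound boxes.

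Cd74 had a promoter peak of 5.93, 3.99 and 5.37, a mean of 5.10 ± 0.998 (SD, n = 3), and best FDR values of 3.33e-55, 1.48e-39 and 3.92e-17. Unlike at the chain and DM genes, it was tallest in replicate 1. Its ratio of replicate 2 to replicate 1 was 0.673, at the 7.81 percentile of shared promoter regions, and its ratio of replicate 4 to replicate 1 was 0.906, at the 9.85 percentile, where the median was 1.24. The region held 8, 7 and 5 footprints. No sequence of Cd74 is shown.

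Ciita has 3 groups of coding start sites on chromosome 16, at 10480059 to 10480164, at 10488279 and at 10489781 to 10489783. The annotation does not name them, and their order along the gene is that of promoter types I, III and IV. A peak in all 3 libraries was present at the upstream group only, with heights of 0.767, 0.736 and 0.681, a mean of 0.728 ± 0.0436 (SD, n = 3). In units of the smallest height step of each library these were 93, 83 and 55 steps; what a step counts is not stated. The middle group had a peak of 0.606 in replicate 4 alone, and the downstream group had none in any library.

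The upstream Ciita peak was weak by every measure. Its percentiles were 40.4, 35.0 and 25.6, its best FDR was 0.0219, 0.00885 and 0.0250, and no shorter list held a peak near any of the Ciita starts. Within 500 bp of the downstream group, no base was listed under the FDR limit in any library, and at the middle group replicate 4 alone listed 50 bases, at 0.0194 at best. Over the genome 43.7% of 30454 start-site groups had a peak in all 3 libraries, and 18% of 1421 genes with 3 or more such groups had it at exactly 1. The stretches below show the upstream and the downstream start. At the upstream start capitals mark the region merged from the peaks of the 3 libraries. Those peaks begin at 10480010, 10480021 and 10480047 in replicates 1, 2 and 4, so the first capitals lie under replicate 1 alone. At the downstream start capitals mark an interferon-response type motif (GAAA, any 2 bases, GAAA).
Ciita upstream start, chr16:10479969-10480058, plus strand: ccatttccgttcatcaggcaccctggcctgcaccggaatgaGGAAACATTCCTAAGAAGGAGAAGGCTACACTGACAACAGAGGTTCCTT
Ciita downstream start, chr16:10489700-10489729, plus strand: ggtgtagacaGAAAGTGAAAgggggaaaag
The motif begins 71 bases before the downstream start. Searched on both strands from 250 bases before to 50 after each start, it was present at 3.52% of all 41438 coding starts. No footprint of any library covered it, and no peak was listed there.

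**Figure D2:**
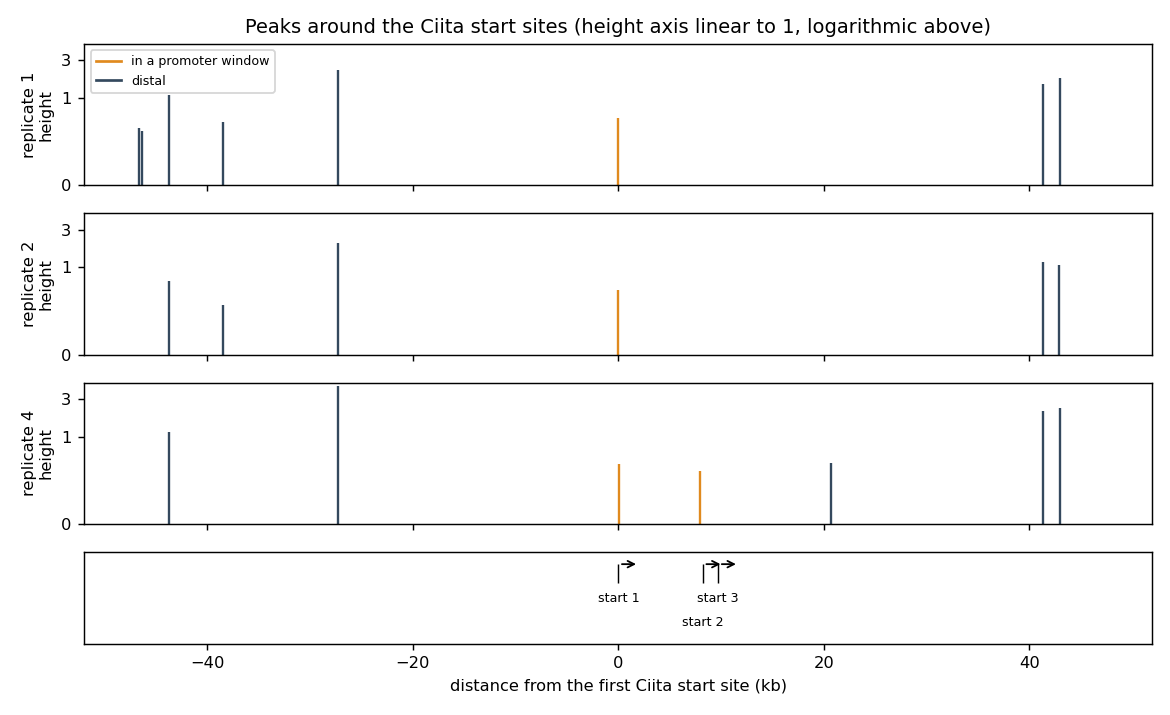
Peaks of the longer list around Ciita in replicates 1, 2 and 4, by distance from the most upstream coding start (horizontal axis, kb) and deposited height (vertical axis, linear to 1 and logarithmic above), with start-site groups as arrows. All libraries share the low peak at 0 kb and taller distal peaks at -43.7, -27.3, 41.3 and 43.0 kb, and start 3 has none.

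Distal peaks, those outside every coding promoter window and within 50 kb of a member's most upstream start, were numerous. The members had a mean of 19.1, 9.5 and 9.9 distal peaks in replicates 1, 2 and 4, against 2.69, 2.05 and 2.47 over all genes. Since the 8 members on chromosome 17 share windows, regions were also counted once, after merging overlapping peaks of the libraries. There were 96 such regions: 36 were recurrent, with a peak in all 3 libraries, 14 had a peak in 2 and 46 in 1. Recurrent regions made up 37.5% of them, against 48.3% of 42922 distal regions of the genome. All 36 recurrent regions contained bases under the FDR limit in every library, as did none of the 46 found in 1. Of those 46, 5 had such bases in 2 libraries and 41 in 1. The FDR values and the peaks come from the same libraries, so this is no independent support for the regions.

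Around Ciita the peaks were few, at 7, 5 and 5, and 4 of 8 regions were recurrent. The tallest was intergenic, at chr16:10452621-10452820 and -27.34 kb from the start, with heights of 2.26, 2.06 and 4.41. Others lay in the 3′ part of the gene, where its record overlaps that of Dexi: chr16:10521301-10521500 had 1.51, 1.15 and 2.12, and chr16:10522921-10523100 had 1.80, 1.08 and 2.33. Each of these was taller in every library than the Ciita promoter peak.

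In the class II cluster 24 of 64 distal regions were recurrent, and 5 of them held the looser module, of which 1 also matched the full X1 box. Over all members 5 of 36 recurrent distal regions held it (13.9%), against 5.06% of 20741 recurrent distal regions of the genome. These 5 regions held 6 matches, and in 4 of the 6 GNNAC lay under footprints of all 3 libraries, against 9.69% of 1197 matches in recurrent distal regions of the genome. These were regions and letters chosen after the promoter letters had been seen, and the share is a description. The 4 are printed because they carry the looser module outside coding promoter windows, with GNNAC and ATTGG in capitals. They are named by the distance of their centre from the nearest member's start (negative is upstream).
-5.45 kb region, chr17:34257726-34257781, plus strand: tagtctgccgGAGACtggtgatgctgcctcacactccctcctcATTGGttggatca
-1.55 kb region, chr17:34261677-34261732, minus strand: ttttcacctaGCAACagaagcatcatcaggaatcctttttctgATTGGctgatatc
-3.96 kb region, chr17:34291733-34291787, plus strand: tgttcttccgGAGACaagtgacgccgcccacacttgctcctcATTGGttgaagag
42.05 kb region, chr17:34347710-34347766, plus strand: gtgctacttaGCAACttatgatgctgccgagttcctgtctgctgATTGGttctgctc

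The first of these, at -5.45 kb from the H2-Ab1 coding start, was the tallest distal region around H2-Ab1, with heights of 9.02, 7.11 and 11.1, a mean of 9.07 ± 1.99 (SD, n = 3). It covers position 34257689, where the H2-Ab1 gene record begins with a transcript that is not protein-coding. It was taller in each library than the H2-Ab1 promoter peak, and both GNNAC and ATTGG lay under footprints of all 3 libraries. The region at -1.55 kb from the same start had 3.43, 2.52 and 3.32, with GNNAC but not ATTGG under footprints. The region at -3.96 kb from H2-Aa had 3.85, 2.86 and 3.30, with the same pattern of protection.

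The region 42.05 kb downstream of the H2-Eb1 start, chr17:34347621-34348220, had heights of 4.89, 3.73 and 6.31, and both parts of its module were protected in all 3 libraries. It lies between genes, with its centre 3.27 kb beyond the 5′ end of H2-Ea-ps, which in this reference strain is a pseudogene of the I-E alpha chain. H2-Ea-ps itself had no promoter peak in any library. The region at 42.05 kb, 600 bp wide, held 6 footprints shared by all libraries, the most of any distal region in the cluster. The other 2 matches were less protected. At chr17:34296248-34296303 no footprint lay over either part, and at chr17:34348130-34348181, a minus-strand match in the same region as the 42.05 kb module, GNNAC was covered in no library and ATTGG in 2.

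**Figure D3:**
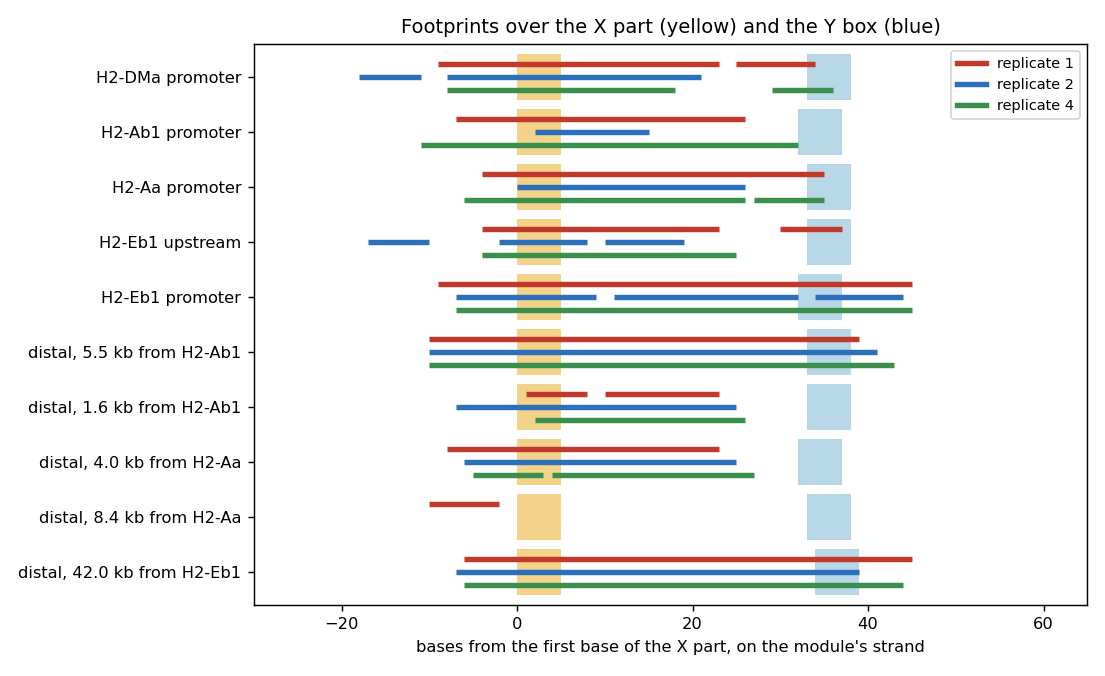
Deposited footprints (horizontal bars, 1 colour per library) over 5 promoter and 5 distal regions of the class II cluster, by distance in bases from the first base of GNNAC on the module's strand, with GNNAC in yellow and ATTGG in blue (the first match of each region). Bars of all 3 libraries cross GNNAC in every row but the distal match 8.4 kb from H2-Aa, while ATTGG is crossed by all 3 at H2-Eb1 and at the distal regions 5.5 kb from H2-Ab1 and 42.0 kb from H2-Eb1.

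Some recurrent distal regions held letters of CTCF, an insulator and loop-anchor protein, read as CC, any base, C, any base, AG, any 2 bases, GGC and searched on both strands in the central 200 bases. They were present in 6 of 36 recurrent member regions (16.7%), against 12.6% of all recurrent distal regions. In all, 9 motifs were searched in this way. PU.1 letters (GGAAGTG) were also in 6 of 36 (15.4% over the genome), RUNX letters (TGTGGTT) and GAS letters (TTCNNNGAA) in 2 each (7.18% and 5.41%), and AP-1 letters (TGANTCA) and those of the composite PU.1 and IRF element in 1 each (10.5% and 4.70%). Interferon-response letters and C/EBP letters (TTGCNNAAT) were in none (2.75% and 2.83%), and the remaining motif is given with Cd74. Each CTCF match lay under footprints of all 3 libraries, as did 76.7% of 2674 such matches in the genome. The tallest, shown with the matching letters in capitals, is the member region with the highest distal peak in replicate 4, at 8.95, 6.81 and 11.7.
CTCF match 9.36 kb downstream of H2-Oa, chr17:34101648-34101679, plus strand: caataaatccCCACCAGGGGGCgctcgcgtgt
The other matches in the cluster lay at -16.89 and -14.57 kb from H2-Oa, 17.89 kb downstream of H2-DMb1 and at -3.76 kb from H2-Ob, and 1 lay at -16.61 kb from Cd74. Their heights ran from 1.11 to 3.28. Matches thus flanked the stretch from H2-Oa to H2-DMb1 on both sides, with another inside it.

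The cluster divided into 2 stretches by how the libraries compared. Over the 67.9 kb from the start of the H2-Oa record to the end of H2-DMb1, the libraries had 18, 13 and 17 peaks. Over the 77.8 kb from H2-Ob to the end of H2-Eb1, which hold the I-A and I-E chain genes, they had 39, 11 and 10. In replicate 1, 27 of those 39 peaks were below the library's median height of 0.932, and their lowest was 0.107; in replicate 2 this held for 1 of 11 and in replicate 4 for none of 10. The surplus was in the shorter lists too, at 32, 10 and 10 peaks. The interval between the stretches was in neither count. It too held low peaks of replicate 1 alone, as at chr17:34207862-34208100 in Tap2 (0.223) and at chr17:34222321-34222508 (0.421). It also held low peaks of replicate 4 alone, as at chr17:34165441-34165660 (1.05).

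Per gene, H2-Ab1 had 37, 8 and 8 distal peaks in replicates 1, 2 and 4, H2-Aa 32, 7 and 6, H2-Eb1 27, 11 and 10, and H2-Ob 25, 5 and 6. Without replicate 1 these 4 genes had 5 to 11. In contrast, H2-DMa had 12, 10 and 16, H2-DMb1 9, 7 and 12, H2-DMb2 10, 8 and 13, and H2-Oa 11, 10 and 14, so there replicate 4 had the most. Of the 46 regions found in 1 library around all members, 34 were in replicate 1 (73.9%), of which 29 were below its median height, against 51.7% of the regions found in 1 library over the genome. Over the genome 7544 of the 7673 regions found in replicate 1 alone were below that height, so low peaks were not particular to the members. The median height of the members' regions found in replicate 1 alone was 0.342, against 0.453 over the genome, and that of their recurrent regions was 1.86, against 1.16.

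**Figure D4:**
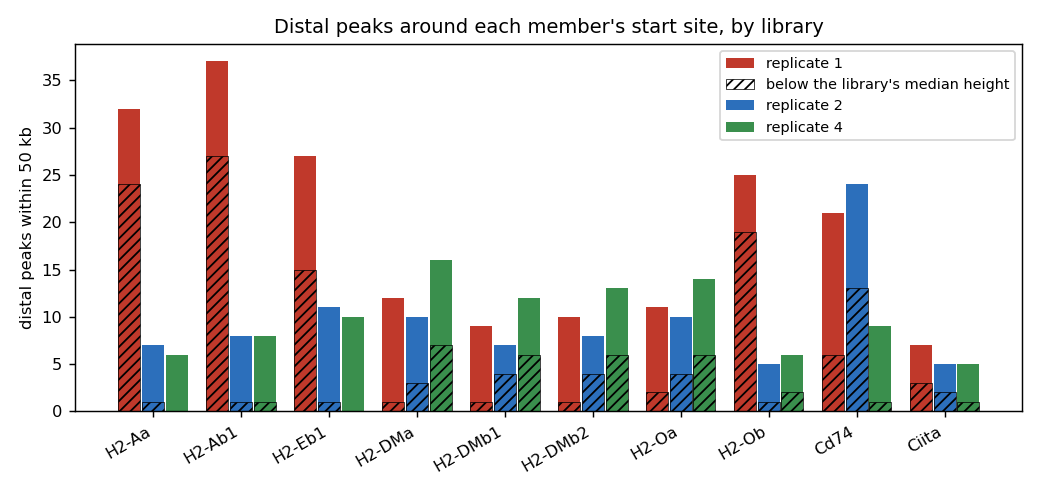
Number of distal peaks within 50 kb of each member's most upstream start (vertical axis) in replicates 1, 2 and 4, with the hatched part of each bar below that library's median peak height. Replicate 1 stands far above the others at H2-Aa, H2-Ab1, H2-Eb1 and H2-Ob, mostly through low peaks, and Cd74 is high in replicates 1 and 2.

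The FDR values had the same split, but they come from the same libraries as the peaks and are no independent support for it. From H2-Ob to H2-Eb1, 21.2% of the bases were listed in replicate 1, against 4.86% and 5.09% in replicates 2 and 4. From H2-Oa to H2-DMb1 the shares were 11.5%, 9.50% and 11.3%. In replicate 1, 9 of the 27 low peaks of the H2-Ob to H2-Eb1 stretch (33.3%) reached an FDR under 1e-06, as did 6.99% of all 26883 peaks below the median height of that library.

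**Figure D5:**
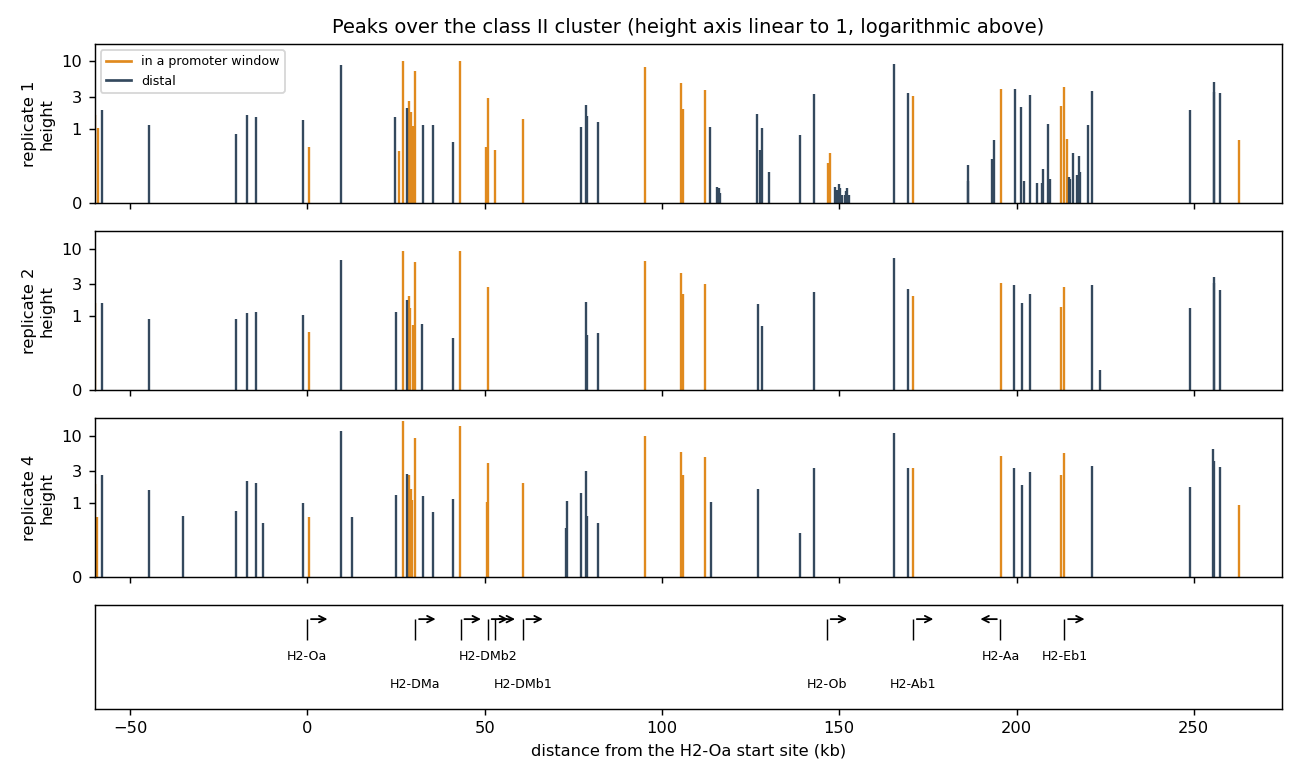
Peaks of the longer list over the class II cluster in replicates 1, 2 and 4, by distance from the H2-Oa start (horizontal axis, kb) and deposited height (vertical axis, linear to 1 and logarithmic above); orange peaks lie in the promoter window of any coding gene, and arrows mark coding starts of members. The tall peaks recur between libraries, whereas the run of low peaks from H2-Ob to H2-Eb1 is present in replicate 1, which also has low peaks of its own before H2-Ob.

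Few genes resembled H2-Ab1 in this respect. Among 1905 genes with at least 20 distal peaks over the libraries, a median of 35.3% fell in replicate 1; for H2-Ab1 it was 69.8%, and 4 genes, H2-Ab1 included, reached that share. Outside the members' windows the genes most like it by this share were Itgax (72.4%, with 21, 3 and 5 peaks), Ahnak2 (66.7%), Atf3 (61.0%), Acy1 (60%) and Psd2 (60%). Itgax encodes the integrin CD11c, a marker of dendritic cells that some monocytes share. Its neighbour Itgam, which encodes CD11b and starts 66.9 kb away, had 19, 5 and 7, so their windows share peaks.

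Marker lists of B cells, dendritic cells, T cells and monocytes were read beside this, and the part of such cells in it was not tested. Over all genes, 54.3%, 52.2% and 52.9% had a promoter peak in replicates 1, 2 and 4, and 50.5% had one in all 3. Of 10 B cell markers 3, 2 and 1 had a promoter peak in replicates 1, 2 and 4, with summed heights of 2.25, 0.984 and 0.656; Ms4a1, Cd79a, Pax5, Blk, Cd22 and Fcer2a were among those with none in any library. Ebf1 had one in all 3, at 0.915, 0.470 and 0.656, Cr2 in replicates 1 and 2, and Cd79b in replicate 1. Of 10 dendritic cell markers 5 had one in each library (Flt3, Zbtb46, Batf3, Itgax and Cd83), with summed heights of 10.6, 9.79 and 14.8, and Xcr1, Clec9a, Ccr7, Siglech and Cd209a had none. Of 10 T cell markers 3, 1 and 1 had one, with summed heights of 2.89, 1.32 and 2.09. Of 10 monocyte markers 8, 6 and 8 had one, with summed heights of 22.3, 17.2 and 30.2, and 6 had one in all libraries, while Ccr2 had none in any, Ly6c2 had one in replicate 1 alone and Fcgr1 in replicate 4 alone. Mean distal peaks per marker gene were 3.8, 2.5 and 3.1 for B cells and 2.9, 3.2 and 3.4 for T cells. They were 7.8, 5 and 6.7 for dendritic cells and 12.3, 8.8 and 10.3 for monocytes. Over all genes the mean was 2.69, 2.05 and 2.47. Without Itgax the 9 other dendritic cell markers had 57, 47 and 62 distal peaks in all, the most in replicate 4.

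Cd74 differed from the cluster in which library stood apart. It had 21, 24 and 9 distal peaks, and 13, 16 and 4 peaks of any kind lay in its 8.8 kb gene record. Of the 8 distal regions with a peak in 2 libraries, 7 were shared by replicates 1 and 2. Within 50 kb of the start 11.1%, 10.9% and 4.21% of the bases were under the FDR limit. The peaks of replicates 1 and 2 in the gene record were mostly low, with 7 of 13 and 10 of 16 below the library's median height, and none of those reached an FDR under 1e-06.

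In the Cd74 gene record, 3 intronic regions recurred in all libraries. The tallest by mean height, at chr18:60804921-60805120, had heights of 2.79, 2.84 and 3.82 and held TGACGTCA, the CRE element of CREB-type factors, under footprints of all 3 libraries. In the central 200 bases this element was present in 0.776% of recurrent distal regions of the genome and in 1 of the 36 member regions. The others, 2.03 and 3.55 kb downstream of the start, had 2.92, 2.31 and 3.44, and 1.85, 1.49 and 2.34. At the 8 recurrent distal regions of Cd74 the median ratio of replicate 4 to replicate 1 was 1.26, against 1.14 over the genome. Regions without a listed peak in replicate 4 could not enter this median. At the Cd74 promoter the ratio was 0.906, against a median of 1.24 over shared promoter regions.

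The median ratio of replicate 4 to replicate 1 was 0.983 over the 24 recurrent distal regions of the class II cluster. It was 0.928 over the 6 of them between H2-Ob and H2-Eb1. For replicate 2 against replicate 1 it was 0.749 and 0.739, against 0.829 over the genome. All 6 regions of that stretch were below the genome's median in the comparison of replicate 2 with replicate 1, and 5 of 6 were in that of replicate 4 with replicate 1. Promoters of the stretch did not all share this for replicate 4: its ratio to replicate 1 was 1.07 at H2-Ab1 but 1.29 at H2-Aa and 1.34 at H2-Eb1, against the median of 1.24 over shared promoter regions.

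Footprints in promoter peaks of members numbered 46, 39 and 44 in replicates 1, 2 and 4, a mean of 43 ± 3.61 (SD, n = 3). In the 11 recurrent promoter regions the median was 4 in each library, against 4, 3 and 4 over all recurrent promoter regions. The 36 recurrent distal regions held 127, 105 and 102. Members did not stand out in footprint number.

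Nearly all other genes of the pathway had a promoter peak. A promoter peak in all 3 libraries was present at 36 of 37 of them, against 50.5% of all genes, and at 34 in the shorter lists. All 13 regulators that act on class II promoters had one, led by Nfya, a subunit of NF-Y, with heights of 15.3, 13.5 and 22.9, and Rfxank, a subunit of RFX, with 9.56, 8.34 and 16.1. Not every regulator was that tall: the acetyltransferase genes Crebbp, at percentiles of 86.3, 78.6 and 83.8, and Kat2b, at 82.2, 73.9 and 79.95, were below the median of all genes with a promoter peak in each library (both were named after their values were seen). All of them exceeded the Ciita promoter peak in every library.

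All 12 genes listed upstream of Ciita, for interferon signalling and transcription factors, had a promoter peak in every library, with Ifngr1, a chain of the interferon gamma receptor, at 12.7, 9.89 and 19.9 and the kinase gene Jak1 at 11.7, 8.74 and 13.5. All 7 genes of the peptide-loading list had one, led by Lgmn (8.48, 6.07 and 10.5) and Ctsd (5.89, 5.13 and 8.27), which encode endosomal proteases. The lowest of the 7 was March1, at 0.734, 0.656 and 1.03 (named after its values were seen). It was below the Ciita promoter peak in replicates 1 and 2. All 4 costimulation genes had one, with Cd86 at 2.23, 1.87 and 3.08 and Cd40 at 2.05, 1.499 and 2.90. H2-Eb2, a relative of H2-Eb1, was the gene without a promoter peak in any library.

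Over whole libraries, the longer lists held 54046, 42657 and 48980 peaks, the shorter lists 36568, 28631 and 34672, and the footprint files 144028, 107955 and 119597 entries in replicates 1, 2 and 4. The median peak height was 0.932, 0.975 and 1.14. Read depth is unknown from these files.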

How the data were processed

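Each of the 3 libraries has 2 deposited peak lists, a footprint list and a list of FDR values, per the labels on mm10 and made by the authors from that library alone. Peak heights are a signal that the authors gave on a scale not given in the sources used here, as are aligner, peak caller and footprint method. Heights are whole multiples of 1 step per library, to within 0.0327 of a step. Values of the p-value kind are the deposited FDR, listed under 0.05; footprints carry 1 constant, and only their positions were used. Promoter windows of 1 kb, distal windows of 50 kb and start-site groups (joined within 200 bp) came from GENCODE M21 basic. Peaks overlapping by 1 bp were merged into regions; low means below the library's median height. Sequences came from GRCm38.p6, and 0 peaks lay beyond its chromosome ends. Code in Python 3.11.15 with numpy 2.4.6 and pysam 0.24.0 was tested on simulated data. No test between groups was possible. Named genes are all members, in each pathway list the 2 highest by mean percentile and those lacking a peak, and the 5 genes most like H2-Ab1; Ifi30 is not protein-coding in this annotation and was not counted. Members, lists and rules were chosen with earlier results of these data known.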

Additional observations from a re-analysis of the deposited data

How the results depend on the processing

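Results were recomputed with the shorter list, the taller 50% of peaks, each replicate left out, other windows, merging across 100 bp and other module spellings; 43 of 55 values stayed within 1.5 times (counts) or 1 SD (means). With the shorter list the Ciita starts with a peak in all libraries fell from 1 to 0. The median percentile of members was 79.1 against 83.1. Percentiles were taken among the peaks of the list in use, so their reference set changed with the setting. With the taller 50% the Ciita starts were 0 and the median percentile, among those taller peaks only, was 72.5. Mean distal peaks per member were then 7.27 against 12.8, regions found in 1 library 13 against 46, and footprints in member promoter peaks 38.7 against 43. With a promoter window of 500 bp the footprints were 37. Distal windows of 25 and 100 kb gave means of 7.03 and 22.6. The looser module, chosen after seeing the data, was at 6 members against 3. Leaving out a replicate gave 29 to 49 regions found in 1 library, the lowest without replicate 1. No paired analysis was possible because there was 1 group. Read depth is unknown, so an absent peak is one not listed, not shown to be closed.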
